A study of Mus musculus with 12 samples.

Results

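Gene expression was compared between Th17 KO and Th1 KO cells, 2 kinds of mouse CD4 helper T cell grown in culture from mice without the receptor NKG2D. The comparison used the 6 libraries whose labels give these cells, 3 of Th17 KO and 3 of Th1 KO, of 12 in the series, and every gene with enough counts for a test. The other 6 libraries, 3 each of Th17 WT and Th1 WT from mice with NKG2D, served to ask whether the Th17 to Th1 difference was larger or smaller with the receptor present. All cells started as naive CD4 T cells from lymph nodes and spleen. OT-II is a transgenic T cell receptor that recognises the ovalbumin peptide OVA323-339, and all cells came from mice that carry it. The strain was OT-II x NKG2D-/- for KO cells and C57BL/6 x OT-II for WT cells.

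Th17 KO cultures, labelled pTh17+IL12, received IL-1b, IL-6 and IL-23 with antibodies against IFNg and IL-4, and IL-12 was added after the second stimulation. Th1 KO cultures received IL-2, IL-12 and an antibody against IL-4. Both were activated with the peptide and an antibody against CD28 in the presence of antigen-presenting cells. They were polarized on day 0 and day 5 and harvested on day 8. KO and WT cells shared a culture and were sorted apart by their Thy1 allele, Thy1.1 for KO and Thy1.2 for WT, and WT cells were also gated as NKG2D positive. Cell type and cytokine mix, the IFNg block included, therefore changed together between Th17 KO and Th1 KO and cannot be told apart. Between KO and WT, genotype, Thy1 allele and NKG2D gate cannot be told apart. The labels do not say which libraries came from separate animals or cultures, so p-values measure the spread between these libraries, which may be technical.

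CD4 T cells take on a helper fate under the cytokines present at activation. Th1 cells form under IL-12 and IFNg through the transcription factors STAT4 and T-bet (Tbx21) and are known for IFNg. Th17 cells form under IL-6 and TGF-b or IL-1 through STAT3, are maintained by IL-23, and are known for IL-17A and IL-17F. Th17 cells given IL-12 can take on features of Th1 cells. NKG2D, encoded by Klrk1, is an activating receptor of natural killer (NK) and cytotoxic T cells that some CD4 T cells also carry.

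The Th17 KO libraries held 11587560, 1722228 and 10728293 counts and the Th1 KO libraries 9108203, 12380583 and 10502252. In Th17 KO 2 a single ID without a name in the annotation, ENSMUSG00000045999, took 51% of all counts. In the remaining 5 KO libraries it never took over 0.00831%. It was removed, which left 844327 counts in Th17 KO 2, so that a count of 0 there allows up to 3.55 CPM, against 0.242 to 0.329 CPM in the other 5 (3 counts, counting error only). CPM (the normalised read count here) are counts divided by the library total after TMM scaling, the usual scaling of edgeR. Th17 KO 2 also stood apart from Th17 KO 1 and 3 on the second principal component of the 6 KO libraries, which held 22% of the variance. The first held 68.9% and separated Th17 KO from Th1 KO. Mitochondrial genes took 20.2%, 19% and 20.8% of the counts used in Th17 KO and 14.9%, 15.1% and 14.6% in Th1 KO.

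Klrk1 (chromosome 6, 129610323 to 129623864 on GRCm38), the gene deleted, was near 0 beside WT in both kinds of KO cell. It had 3.82, 2.39 and 1.82 CPM in the Th17 KO libraries, against 6.36, 6.40 and 3.77 CPM in the Th1 KO libraries. The WT libraries held 148, 161 and 152 CPM in Th17 and 183, 179.7 and 146 CPM in Th1. The small difference between the KO groups, whose values overlap, passed the threshold (log2 fold change -0.96, SE 0.31, adjusted p = 0.0204), but not without Th17 KO 3 (adjusted p = 0.114), Th1 KO 1 (adjusted p = 0.0501) or Th1 KO 2 (adjusted p = 0.0606). Hcst, the adaptor DAP10 through which NKG2D signals, had 8.53, 9.58 and 9.31 CPM in the Th17 KO libraries, against 15, 15.8 and 15.7 CPM in the Th1 KO libraries, and was lower in Th17 KO (log2 fold change -0.79, SE 0.13, adjusted p = 9.39e-06), though not with all libraries thinned to the smallest (adjusted p = 0.627). Adjusted p-values here and throughout come from edgeR's quasi-likelihood test with Benjamini-Hochberg adjustment over all genes tested, and a gene is said to differ, rise or fall in Th17 KO only where its adjusted p was under 0.05.

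Th17 KO and Th1 KO cells differed at most of the genes measured. Of 12379 genes tested, 6564 (53.0%) passed the threshold, 3340 (27.0%) higher and 3224 (26.0%) lower in Th17 KO. These shares are to be set beside every count of list members below. The larger changes were mostly upward: 1192 genes (9.63%) were over 2-fold higher and 597 (4.82%) over 2-fold lower. Tested against a fold of 1.5, 1165 genes (9.41%) were higher and 752 (6.07%) lower. The median log2 fold change was 0.01 over all genes, 0.70 over those higher and -0.51 over those lower. CPM ranges of the 2 groups did not overlap for 6832 genes (55.2%), so separate ranges alone are common in this comparison. Without Th17 KO 2, 6341 of the 6564 genes still passed. In bulk samples fewer cells of a type and less RNA per cell cannot be told apart.

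**Figure D1:**
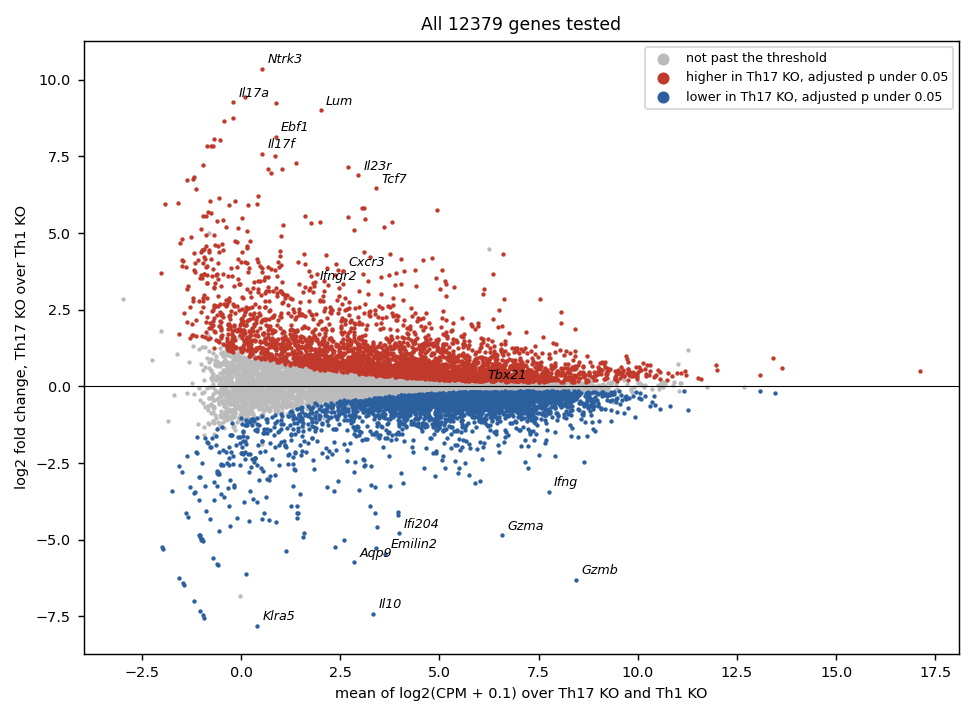
Log2 fold change of Th17 KO over Th1 KO (vertical axis) against mean level (horizontal axis, mean of log2 of CPM + 0.1) for the 12379 genes tested, with 3340 genes higher in red, 3224 lower in blue and the rest in grey. Il23r lies at 6.88 and Gzmb at -6.30, while Tbx21 sits at 0.06, and fitted values of genes with 0 counts in a group depend on a prior count.

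Th17 cytokine genes were higher in Th17 KO, while Th17 receptor and transcription factor genes moved both ways. All 4 tested Th17 cytokine genes of 6 listed rose, with a median log2 fold change of 5.96 beside 0.01 over all genes, or 5.34 with Il17a at its lower bound. Il17a and Il17f could pass the filter on low counts only through groups where they were higher. With libraries thinned 1 gene of the list was tested, and it rose. Il17a (chromosome 1, 20730905 to 20734496, plus strand), which encodes IL-17A, had 9.69, 3.59 and 9.02 CPM in the Th17 KO libraries, against 0, 0 and 0 CPM in the Th1 KO libraries. No count fell in any Th1 KO library, so the difference was at least 81.3-fold (3 counts over the group as the floor, adjusted p = 1.53e-08). Il17f, its neighbour and partner in the IL-17A and IL-17F heterodimer, had 13.9, 9.58 and 16.2 CPM in the Th17 KO libraries, against 0, 0.0790 and 0.0921 CPM in the Th1 KO libraries. With 2 counts over the Th1 KO group the ratio was 243 (95% counting interval 66.6 to 2012). Both genes were detected in every Th17 KO library and lay at or near 0 in Th1 KO.

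Il21, which encodes a cytokine that acts back on Th17 cells and on B cells, had 447, 379 and 480.1 CPM in the Th17 KO libraries, against 19.0, 26.4 and 20.2 CPM in the Th1 KO libraries, a 20.1-fold difference (log2 fold change 4.33, SE 0.19, adjusted p = 4.04e-08). Csf2, which encodes GM-CSF, had 3.20, 3.59 and 4.32 CPM in the Th17 KO libraries, against 2.05, 2.29 and 1.66 CPM in the Th1 KO libraries. Its rise was small (log2 fold change 0.89, SE 0.29, adjusted p = 0.0115) and did not pass without Th17 KO 3 (adjusted p = 0.141). Il22 had 14 counts in Th17 KO and 0 in Th1 KO, and Ccl20, a ligand of CCR6, had 0 and 1, too few for a test.

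Several receptors that let a cell sense the Th17 cytokine mix were higher too. Il23r (chromosome 6, 67422932 to 67491855, minus strand), the specific chain of the IL-23 receptor, had 85.7, 83.8 and 73.9 CPM in the Th17 KO libraries, against 0.431, 1.19 and 0.276 CPM in the Th1 KO libraries. That is a 118-fold difference with no overlap (log2 fold change 6.88, SE 0.18, adjusted p = 8.61e-21). Il1r1, the signalling receptor for IL-1, had 11.6, 20.3 and 13.2 CPM in the Th17 KO libraries, against 0.646, 2.21 and 0.921 CPM in the Th1 KO libraries (log2 fold change 3.30, SE 0.29, adjusted p = 4.05e-10). Il6ra, which binds IL-6, had 5.78, 7.18 and 4.70 CPM in the Th17 KO libraries, against 0.431, 1.11 and 0.276 CPM in the Th1 KO libraries (log2 fold change 3.06, SE 0.37, adjusted p = 1.33e-07). Its signalling partner Il6st, which encodes gp130, went the other way, with 5.69, 3.59 and 4.32 CPM in the Th17 KO libraries, against 20.4, 15.5 and 13.5 CPM in the Th1 KO libraries (log2 fold change -1.72, SE 0.19, adjusted p = 4.14e-08). The subunits of the IL-6 receptor thus moved in opposite directions.

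Ccr6, the chemokine receptor by which Th17 cells are often recognised, was low in absolute terms, with 0.711, 3.59 and 1.82 CPM in the Th17 KO libraries, against 0.108, 0 and 0 CPM in the Th1 KO libraries. The group ratio was 43.7 (95% counting interval 7.27 to 1784), and the lowest Th17 KO library still lay above the highest Th1 KO library. Its counts were too few for a test with libraries thinned, with the 6 KO libraries alone, or with ENSMUSG00000045999 kept. Il17re, a subunit of the IL-17C receptor, and the tetraspanin gene Cd9 rose by 1.40 ± 0.24 and 0.85 ± 0.13 (log2 fold change ± SE). In contrast, Tmem176a and Tmem176b, paired membrane protein genes often found in Th17 cells, fell by log2 fold changes of -1.63 ± 0.17 and -1.70 ± 0.17. Tmem176b had 8.09, 9.58 and 7.97 CPM in the Th17 KO libraries, against 23.9, 32.1 and 22.8 CPM in the Th1 KO libraries. Altogether 6 of 11 tested Th17 receptor and surface genes were higher and 4 lower (median 0.85), where 27.0% of all genes tested were higher and 26.0% lower. With libraries thinned only 5 of the list were tested, 2 higher and 3 lower, and the median turned to -1.16. Cd163l1, the fourth lower gene, rested on 2 counts in Th17 KO and 20 in Th1 KO and did not pass without Th1 KO 2 (adjusted p = 0.0799) or Th17 KO 1 (adjusted p = 0.151).

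Among 11 Th17 transcription factor genes, 6 were higher and 2 lower (median 0.66), beside 27.0% and 26.0% of all genes tested. Among those higher, Irf4 rose by 1.01 ± 0.21, Batf by 0.91 ± 0.09, Stat3 by 0.75 ± 0.06, Rora by 0.70 ± 0.09 and Runx1 by 0.66 ± 0.10 (log2 fold change ± SE). BATF and IRF4 open sites that STAT3 then binds in Th17 cells, and RORa (Rora) is a nuclear receptor that promotes the Th17 fate. Maf, which encodes c-MAF, a factor of IL-10 and IL-17 producing cells, fell to 50.6, 55.1 and 36.8 CPM in the Th17 KO libraries, against 148, 166 and 188 CPM in the Th1 KO libraries (log2 fold change -1.90, SE 0.25, adjusted p = 0.00019). Ikzf3 (Aiolos) was the other lower gene, at -0.64 ± 0.27. Its call did not hold without Th1 KO 1, Th1 KO 2, Th17 KO 1, Th17 KO 2, Th17 KO 3, Th1 WT 2 or Th17 WT 2. The lower count of the list was 1 without Th1 KO 1, Th1 KO 2, Th17 KO 2, Th1 WT 2 or Th17 WT 2 and 4 without Th1 KO 3. Ahr, Hif1a and Nfkbiz did not pass (0.37 ± 0.24, -0.14 ± 0.07 and -0.23 ± 0.12), and Ahr had 8.09, 2.39 and 4.22 CPM in the Th17 KO libraries, against 4.20, 4.35 and 5.25 CPM in the Th1 KO libraries, with Th17 KO 1 alone above the Th1 KO range. Without Th17 KO 3 its value was 0.66 and passed (adjusted p = 0.035), and without Th17 KO 1 it was -0.21.

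**Figure D2:**
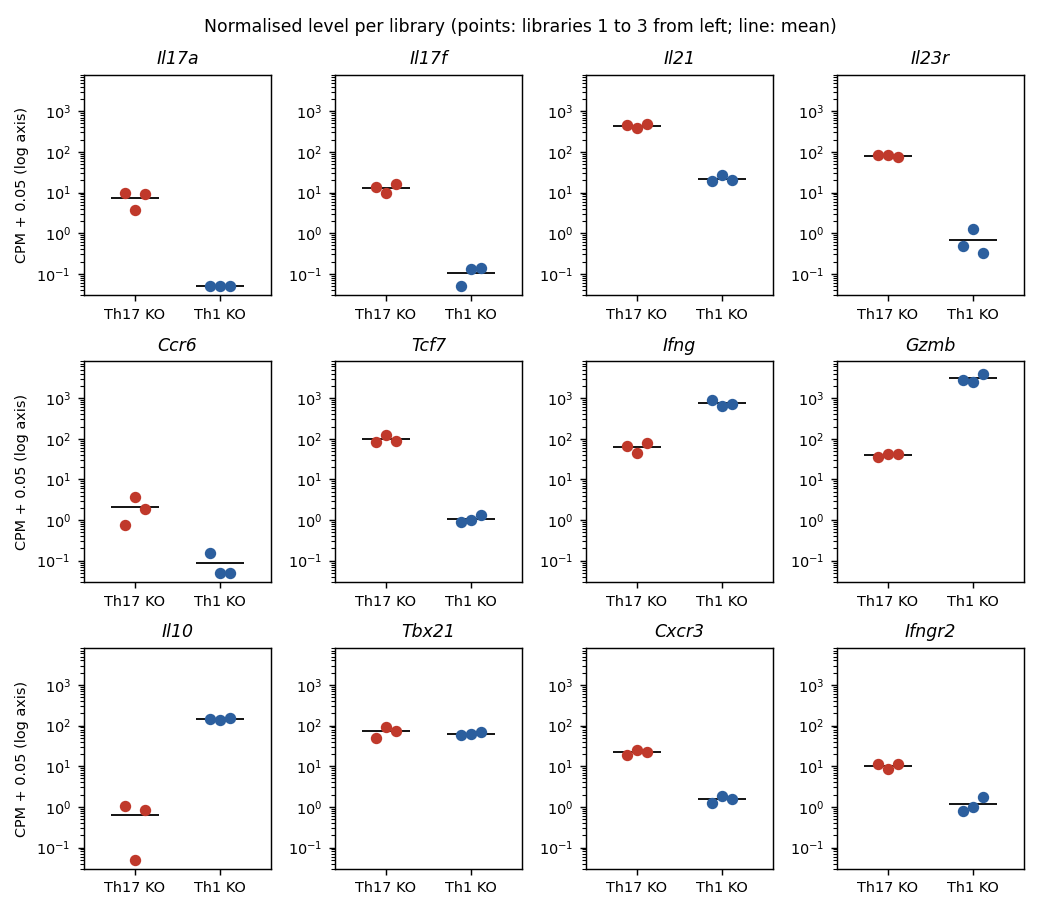
Normalised level of 12 genes in the 3 Th17 KO libraries (left, red) and the 3 Th1 KO libraries (right, blue), as CPM + 0.05 on a log axis, with the line at the group mean. Il17a, Il17f, Il21, Il23r, Ccr6, Tcf7, Cxcr3 and Ifngr2 are separate and higher in Th17 KO, Ifng, Gzmb and Il10 are separate and lower, and Tbx21 overlaps.

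The promoter regions of the Th17 genes that differed most and of Ifng are printed to show the DNA around their starts, with the hexamer AGGTCA and its reverse complement TGACCT in capitals. RORa binds this half-site after an A and T rich stretch. The sequences are RefSeq's on GRCm38.p6, 250 bases before to 50 after the start of the gene, 5′ to 3′ along the gene. For Il17f the RefSeq start lies inside the longer gene model of the annotation used for the other coordinates.
Il17a (chr1:20730655-20730954, plus strand): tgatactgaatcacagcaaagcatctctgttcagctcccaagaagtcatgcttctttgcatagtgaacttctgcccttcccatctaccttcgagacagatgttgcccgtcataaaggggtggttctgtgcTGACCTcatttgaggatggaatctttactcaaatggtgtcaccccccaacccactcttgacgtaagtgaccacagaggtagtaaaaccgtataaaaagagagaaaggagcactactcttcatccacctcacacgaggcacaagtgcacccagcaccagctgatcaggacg
Il17f (chr1:20784221-20784520, minus strand): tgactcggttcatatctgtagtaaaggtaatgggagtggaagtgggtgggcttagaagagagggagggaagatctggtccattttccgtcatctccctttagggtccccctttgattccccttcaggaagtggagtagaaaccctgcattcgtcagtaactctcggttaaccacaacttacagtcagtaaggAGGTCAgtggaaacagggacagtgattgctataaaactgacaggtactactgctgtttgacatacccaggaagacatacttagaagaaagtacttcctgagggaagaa
Il23r (chr6:67491806-67492105, minus strand): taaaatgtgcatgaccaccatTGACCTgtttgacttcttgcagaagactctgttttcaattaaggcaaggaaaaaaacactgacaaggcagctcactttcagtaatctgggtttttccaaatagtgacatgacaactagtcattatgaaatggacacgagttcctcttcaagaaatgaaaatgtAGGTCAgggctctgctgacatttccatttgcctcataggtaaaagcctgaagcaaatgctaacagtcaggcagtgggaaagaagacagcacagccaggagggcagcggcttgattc
Ifng (chr10:118440796-118441095, plus strand): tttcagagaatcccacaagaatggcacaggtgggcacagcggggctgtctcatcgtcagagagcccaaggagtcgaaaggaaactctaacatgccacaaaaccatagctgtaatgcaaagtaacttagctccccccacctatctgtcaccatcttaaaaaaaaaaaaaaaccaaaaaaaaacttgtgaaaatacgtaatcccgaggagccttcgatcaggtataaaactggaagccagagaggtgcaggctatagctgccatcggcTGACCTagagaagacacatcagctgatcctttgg
The hexamer was found 120 bases before the start in Il17a, 58 before it in Il17f, and 229 and 66 before it in Il23r. In Ifng, which fell, it lies 16 bases after the start. On either strand it occurs in 16.0% of the 27025 promoters of this length in the RefSeq table, 1 per gene. A match is a description and shows neither binding nor a cause.

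Th1 cytokines were lower in Th17 KO, while the gene of the master factor T-bet did not pass the test. Ifng (chromosome 10, 118441046 to 118445892) had 67.6, 44.3 and 76.4 CPM in the Th17 KO libraries, against 894, 622 and 697 CPM in the Th1 KO libraries, a 10.8-fold difference (log2 fold change -3.43, SE 0.24, adjusted p = 2.81e-06). Lta, which encodes lymphotoxin-a, had 25.1, 16.8 and 16.9 CPM in the Th17 KO libraries, against 184, 191 and 175 CPM in the Th1 KO libraries (log2 fold change -3.14, SE 0.26, adjusted p = 8.45e-06). Tnf had 31.4, 35.9 and 36.8 CPM in the Th17 KO libraries, against 126, 132 and 105 CPM in the Th1 KO libraries (log2 fold change -1.82, SE 0.22, adjusted p = 0.000102). Every Th17 KO library lay below every Th1 KO library for these genes, and Ifng was still well above 0 in Th17 KO. Ccl5, an inflammatory chemokine, rose (log2 fold change 1.27, SE 0.35, adjusted p = 0.00381), while the related Ccl3 and Ccl4 overlapped and did not pass (0.62 ± 0.62 and 0.08 ± 0.35). Of 6 tested genes of 8, 1 was higher and 3 were lower (median -0.87), beside 27.0% and 26.0% of all genes tested. Il2 and Xcl1 had at most 1 count in the 6 libraries.

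Tbx21 had 50.6, 92.2 and 75.0 CPM in the Th17 KO libraries, against 58.0, 63.0 and 68.1 CPM in the Th1 KO libraries. The Th17 KO values spread on both sides of the Th1 KO values (log2 fold change 0.06, SE 0.20, adjusted p = 0.829). Of the 9 tested Th1 factor genes of 10, 4 were higher and 1 was lower in Th17 KO (median 0.13), beside 27.0% and 26.0% of all genes. Zeb2, a repressor that works with T-bet in effector T cells, had 44.7, 45.5 and 46.1 CPM in the Th17 KO libraries, against 12, 11.1 and 12.1 CPM in the Th1 KO libraries (log2 fold change 1.96, SE 0.11, adjusted p = 1.19e-13). Bhlhe40, a factor that restrains IL-10 in helper T cells, had 1084, 1191 and 1232 CPM in the Th17 KO libraries, against 597, 577 and 598 CPM in the Th1 KO libraries (log2 fold change 0.98, SE 0.06, adjusted p = 6.12e-13). Stat4, which signals for IL-12, rose by 0.39 ± 0.08. The lower gene was Hlx, a partner of T-bet at Ifng, which fell by a log2 fold change of -1.28 ± 0.12. Runx3, Irf1 and Twist1 did not pass (-0.02 ± 0.11, 0.13 ± 0.17 and -0.46 ± 0.30). Eomes had 1 count in Th17 KO and 7 in Th1 KO.

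All 11 Th1 receptor genes passed, 3 higher and 8 lower in Th17 KO (median -0.87). The IFNg receptor chains moved in opposite directions. Ifngr1, the binding chain, had 266, 231 and 220.0 CPM in the Th17 KO libraries, against 747, 756 and 698 CPM in the Th1 KO libraries (log2 fold change -1.61, SE 0.07, adjusted p = 3.91e-16). Ifngr2, the signalling chain, had 11.5, 8.38 and 11.2 CPM in the Th17 KO libraries, against 0.754, 0.948 and 1.66 CPM in the Th1 KO libraries (log2 fold change 3.28, SE 0.29, adjusted p = 3.69e-10). The IL-12 receptor chains were split in the same way, with Il12rb1 at -0.94 ± 0.07 and Il12rb2 at 0.49 ± 0.06. Both chains of the IL-18 receptor were lower, Il18rap with a log2 fold change of -1.48 ± 0.11 and Il18r1 with -0.80 ± 0.09.

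Chemokine receptors linked to Th1 cells split as well. Cxcr3 had 18.7, 25.1 and 21.8 CPM in the Th17 KO libraries, against 1.19, 1.82 and 1.47 CPM in the Th1 KO libraries, a 13.5-fold rise (log2 fold change 3.76, SE 0.22, adjusted p = 2.02e-13). Cxcr6 had 72.3, 85.0 and 119 CPM in the Th17 KO libraries, against 229, 253 and 294 CPM in the Th1 KO libraries (log2 fold change -1.46, SE 0.22, adjusted p = 0.000547). CXCR3 and CXCR6, both found on Th1 cells in inflamed tissue, were thus on opposite sides. Havcr2, which encodes the inhibitory receptor TIM-3, fell to 9.96, 13.2 and 20.0 CPM, against 73.7, 64.3 and 93.5 CPM in the Th1 KO libraries (log2 fold change -2.38, SE 0.32, adjusted p = 0.000261).

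Over the wider set of 17 chemokine receptor and homing genes, 9 of 12 tested were higher and 3 lower, with a median of 2.45. For this list and for chemokines, the shares over all genes tested were 27.0% higher and 26.0% lower. S1pr1, which lets T cells leave lymphoid tissue, had 111, 107 and 82.5 CPM in the Th17 KO libraries, against 10.7, 15.3 and 11.7 CPM in the Th1 KO libraries (log2 fold change 2.95, SE 0.13, adjusted p = 4.7e-12). Ccr1 and Ccr8 rose by 1.94 ± 0.11 and 4.01 ± 0.50, and Ccr2 fell by a log2 fold change of -0.93 ± 0.09. Among chemokines, 3 of 5 tested of 14 rose and none fell, and with libraries thinned none was tested. Cxcl10, an interferon-induced ligand of CXCR3, had 9.07, 18.0 and 12.6 CPM in the Th17 KO libraries, against 1.40, 3.0 and 3.04 CPM in the Th1 KO libraries (log2 fold change 2.16, SE 0.25, adjusted p = 7.18e-08). Ccl22, a ligand of CCR4, had 1.33, 1.20 and 4.90 CPM in the Th17 KO libraries, against 0, 0 and 0.0921 CPM in the Th1 KO libraries. With 1 count in Th1 KO, its ratio was 97.6 (95% counting interval 16.9 to 3914). The gene could pass the filter on low counts only through groups where it was higher.

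Il10 carried one of the largest falls of any gene. It had 0.978, 0 and 0.768 CPM in the Th17 KO libraries, against 149, 134 and 156 CPM in the Th1 KO libraries, a 171-fold difference (log2 fold change -7.41, SE 0.17, adjusted p = 4.09e-21). IL-10, an anti-inflammatory cytokine, was thus abundant as mRNA in Th1 KO and at or near 0 in Th17 KO. Of 11 tested other helper cytokine genes of 16, 4 were higher and 6 lower (median -0.59), beside 27.0% and 26.0% of all genes. Il13, a Th2 cytokine, had 1.24, 3.59 and 2.88 CPM in the Th17 KO libraries, against 0, 0 and 0 CPM in the Th1 KO libraries, at least 28.1-fold higher. Il3 had 2.58, 2.39 and 2.69 CPM in the Th17 KO libraries, against 0.108, 0 and 0.184 CPM in the Th1 KO libraries, a ratio of 28.7 (95% counting interval 9.34 to 143). Mif rose by 0.50 ± 0.08, and Ltb and Tgfb1 fell by log2 fold changes of -0.59 ± 0.10 and -0.59 ± 0.12, Tgfb1 not with libraries thinned (adjusted p = 0.088). Il4 and Il5 had at most 1 count in the 6 libraries.

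Most genes of cytotoxic cells that were tested were lower in Th17 KO. Gzmb (chromosome 14, 56258838 to 56262260), which encodes the protease granzyme B, had 35.3, 41.9 and 41.9 CPM in the Th17 KO libraries, against 2773, 2506 and 3890.3 CPM in the Th1 KO libraries, a 78.6-fold difference (log2 fold change -6.30, SE 0.32, adjusted p = 3.65e-07). Gzma, granzyme A, had 16.3, 16.8 and 19.9 CPM in the Th17 KO libraries, against 517, 349.5 and 687 CPM in the Th1 KO libraries (log2 fold change -4.85, SE 0.34, adjusted p = 3.21e-06). Fasl, the death ligand, had 7.02, 5.98 and 4.03 CPM in the Th17 KO libraries, against 54.2, 45.0 and 50.5 CPM in the Th1 KO libraries (log2 fold change -3.15, SE 0.19, adjusted p = 2.02e-09). The groups were far apart for each of them. Of 15 tested cytotoxic genes of 20, 10 were lower and 2 higher (median -0.69), beside 26.0% and 27.0% of all genes tested. With libraries thinned 12 were tested, 5 lower and 2 higher. Against a fold of 1.5, 5 were lower and none was higher. Without Th17 KO 1 the lower count was 6. The higher genes were Cst7 (cystatin F, 0.65 ± 0.08) and Srgn (serglycin, 0.26 ± 0.08). Srgn overlapped between groups and did not pass without Th1 KO 3 (adjusted p = 0.0514), Th17 KO 1 (adjusted p = 0.119) or Th17 KO 3 (adjusted p = 0.0637). Granzyme genes are similar in sequence, so reads may have been shared among them.

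The NK cell receptor genes tested were lower in Th17 KO. All 8 tested genes of 18 were lower, with log2 fold changes from -3.77 to -2.05 and a median of -2.66, beside 0.01 over all genes. Some were near 0 in Th17 KO, with a mean of 0.185 CPM at the lowest. These could pass the filter on low counts only through groups where they were higher, so the shared direction is partly set by the filter. With libraries thinned 4 genes were tested, all lower. Klrd1, which encodes CD94, the partner of the NKG2 chains, had 28.9, 32.3 and 30.4 CPM in the Th17 KO libraries, against 133, 118 and 121 CPM in the Th1 KO libraries (log2 fold change -2.05, SE 0.09, adjusted p = 1.05e-16). Klrc2, which encodes NKG2C, had 14.1, 13.2 and 14.4 CPM in the Th17 KO libraries, against 97.2, 77.9 and 94.5 CPM in the Th1 KO libraries (log2 fold change -2.66, SE 0.12, adjusted p = 5.98e-13). Klri2 had 2.13, 2.39 and 3.36 CPM in the Th17 KO libraries, against 19.0, 16.4 and 20.8 CPM in the Th1 KO libraries (log2 fold change -2.78, SE 0.19, adjusted p = 2.09e-12). These 3 genes lie on chromosome 6 beside Klrk1, the gene deleted in both groups, and reads may be shared within the Klrc family. Klra5, a Ly49 receptor gene of the same region and outside the list, had 0, 0 and 0.0960 CPM in the Th17 KO libraries, against 10.7, 11.1 and 17.4 CPM in the Th1 KO libraries, a ratio of Th1 KO over Th17 KO of 294 (95% counting interval 52.6 to 11654). Markers of NK and innate lymphoid cells summed over 7 genes to 7.82, 9.58 and 9.98 CPM in Th17 KO, against 18.7, 17.4 and 25.7 CPM in Th1 KO. That sum was lower in Th17 KO, but the single markers did not share this direction. Most of that sum in Th1 KO was Il1rl1, an IL-33 receptor gene that Th2 cells also use, with 66 counts in Th17 KO and 536 in Th1 KO (-2.48 ± 0.33). Kit, the only other marker tested, did not pass. Ncr1, a defining NK receptor, had 0 counts in all 6 libraries, Tyrobp 4 in either group and Klrb1c 2 in Th17 KO and 1 in Th1 KO. Fcer1g had 15 counts in Th17 KO and 10 in Th1 KO, and Cd7 had 0 and 3. The part of such cells in the receptor and cytotoxic genes was not tested.

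Interferon-stimulated genes were mixed, with 20 lower and 9 higher among 43 tested of 48 (median -0.42). Over all genes tested 26.0% were lower and 27.0% higher. Lower ones included GTPases that defend against intracellular microbes. Gbp4 had 234, 165 and 205 CPM in the Th17 KO libraries, against 660.3, 641 and 649.5 CPM in the Th1 KO libraries (log2 fold change -1.64, SE 0.08, adjusted p = 5.42e-13), and Gbp7 and Igtp fell by log2 fold changes of -1.27 ± 0.06 and -0.90 ± 0.06. Ifi204, a DNA sensor of the p200 family, had 2.13, 2.39 and 4.03 CPM in the Th17 KO libraries, against 70.2, 89.5 and 90.5 CPM in the Th1 KO libraries (log2 fold change -4.78, SE 0.23, adjusted p = 8.09e-09). Higher ones included the RNA sensor gene Ifih1 (0.90 ± 0.13) and Gbp2 (0.63 ± 0.07), a GTPase of the same family as Gbp4, in addition to Cxcl10. Guanylate-binding protein genes and p200 genes are similar to one another, so reads may have been shared.

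Genes of naive and memory T cells were mostly higher in Th17 KO, 10 of 15 against 4 lower (median 0.83). Tcf7, which encodes TCF1, a factor of T cells that keep the capacity to renew, had 84.3, 127 and 89.3 CPM in the Th17 KO libraries, against 0.862, 0.948 and 1.29 CPM in the Th1 KO libraries, an 87.6-fold difference (log2 fold change 6.45, SE 0.18, adjusted p = 1.26e-18). Cd27 rose by 2.04 ± 0.17. Foxp1, Bcl2 and Il7r fell by log2 fold changes of -1.28 ± 0.10, -0.85 ± 0.15 and -0.55 ± 0.06. Follicular helper genes had 5 of 7 tested higher and 1 lower (median 2.11), where 27.0% of all genes tested were higher and 26.0% lower. Cd200, a ligand of an inhibitory receptor, had 90.7, 94.6 and 85.0 CPM in the Th17 KO libraries, against 1.83, 3.16 and 1.20 CPM in the Th1 KO libraries (log2 fold change 5.37, SE 0.15, adjusted p = 1.12e-19). Btla, an inhibitory receptor of the same cells, had 118, 114 and 111 CPM in the Th17 KO libraries, against 11.2, 13.2 and 9.02 CPM in the Th1 KO libraries (log2 fold change 3.35, SE 0.13, adjusted p = 4.82e-13), and Bcl6, the follicular master factor, had 12.4, 21.5 and 18.4 CPM in the Th17 KO libraries, against 2.48, 3.87 and 3.50 CPM in the Th1 KO libraries (log2 fold change 2.25, SE 0.22, adjusted p = 3.17e-09). Cxcr5, the follicular homing receptor, was under the filter. Icos was the lower one (-0.56 ± 0.19), a call lost without Th1 KO 1, Th1 KO 2, Th17 KO 2 or Th17 KO 3 (adjusted p = 0.0927, 0.0724, 0.08 and 0.113).

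Th2 genes had 4 of 7 tested higher and 2 lower (median 1.24). Gata3, the Th2 master factor, had 14.1, 16.8 and 16.3 CPM in the Th17 KO libraries, against 6.90, 7.11 and 5.43 CPM in the Th1 KO libraries (log2 fold change 1.24, SE 0.15, adjusted p = 9.97e-08). The prostaglandin D2 receptor gene Ptgdr2 and the IL-33 receptor gene Il1rl1, both of Th2 cells, fell by log2 fold changes of -4.31 ± 0.41 and -2.48 ± 0.33. Regulatory T cell genes had 4 of 12 tested higher and 1 lower (median 0.05), and the lower count was 2 without Th1 KO 3 and 3 without Th17 KO 1. With 27.0% of all genes tested higher and 26.0% lower, these counts alone do not set either list apart. Ctla4, an inhibitory receptor, had 453, 455 and 409 CPM in the Th17 KO libraries, against 193, 213 and 187 CPM in the Th1 KO libraries (log2 fold change 1.14, SE 0.06, adjusted p = 5.66e-14), and Nrp1 and Tnfrsf4 rose by 2.26 ± 0.20 and 0.49 ± 0.08. Entpd1, which encodes the ectoenzyme CD39, fell by a log2 fold change of -1.28 ± 0.10. Foxp3, the master factor of these cells, had 0 counts in Th17 KO and 3 in Th1 KO.

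Of 20 costimulatory and inhibitory receptor genes, 11 were higher and 5 lower (median 0.54), with 3 lower without Th17 KO 3. Cd6 rose by 1.15 ± 0.07, and Cd200r1 was lower (-0.79 ± 0.24) but not without Th1 KO 3 (adjusted p = 0.0871). TNF superfamily ligands split 4 higher and 6 lower of 12 (median -0.30). For both lists the shares over all genes tested were 27.0% higher and 26.0% lower. Tnfsf8, which encodes CD30 ligand, had 115, 119.7 and 132 CPM in the Th17 KO libraries, against 9.05, 9.33 and 8.38 CPM in the Th1 KO libraries (log2 fold change 3.78, SE 0.13, adjusted p = 1.69e-15). Tnfsf4 (OX40 ligand) rose by 2.43 ± 0.30 and Tnfsf11 (RANKL) by 1.10 ± 0.24, the last with Th17 KO 2 inside the Th1 KO range.

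Genes induced on activation were higher for 11 of 18 and lower for 2 (median 0.96), beside 27.0% and 26.0% of all genes. Tnfaip3, which encodes A20, a brake on NF-kB, had 473, 508 and 508 CPM in the Th17 KO libraries, against 73.3, 64.3 and 70.5 CPM in the Th1 KO libraries (log2 fold change 2.84, SE 0.07, adjusted p = 6.89e-21). Cd69, an early activation marker, and the nuclear receptor gene Nr4a2 rose by 1.55 ± 0.10 and 2.80 ± 0.25. The lower ones were Fos (-0.66 ± 0.21) and Ier3 (-0.54 ± 0.17). Neither passed without Th17 KO 1 (adjusted p = 0.123 and 0.0551), and the lower count was 1 without Th1 KO 2 or Th1 KO 3.

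TGF-b and activin genes showed 6 higher and 4 lower of 15 (median 0.00). Over all genes tested 27.0% were higher and 26.0% lower, so such counts alone do not set this list or the next ones apart. Inhba, which encodes activin A, had 9.78, 16.8 and 9.89 CPM in the Th17 KO libraries, against 0.862, 1.03 and 0.644 CPM in the Th1 KO libraries (log2 fold change 3.60, SE 0.27, adjusted p = 2.26e-11). Smad3 and Skil, the signal transducer and a target that represses it, rose by 1.64 ± 0.12 and 1.16 ± 0.07, and the receptor gene Tgfbr1 fell by a log2 fold change of -1.24 ± 0.13. The IL-2 receptor, STAT and SOCS list had 7 higher and 5 lower of 18 (median 0.16). Stat5a, which signals for IL-2, rose by 1.11 ± 0.07, and Socs2, which restrains cytokine signalling, had 74.5, 38.3 and 47.9 CPM in the Th17 KO libraries, against 182, 193 and 183 CPM in the Th1 KO libraries (log2 fold change -1.66, SE 0.23, adjusted p = 0.00033). Integrin and homing genes were 4 higher and 5 lower of 13 (median 0.12), with Cd44 at 1.18 ± 0.07, Itgae at 1.96 ± 0.52, Itga2 at -1.81 ± 0.35 and Itgb3 at -1.45 ± 0.18.

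Most genes of the cell cycle and of amino acid supply were lower in Th17 KO. Of 31 cell cycle genes, 30 fell and none rose, with a median of -0.68 beside 0.01 over all genes. Mcm2, a subunit of the replicative helicase, had 135, 147 and 134 CPM in the Th17 KO libraries, against 301, 294 and 278 CPM in the Th1 KO libraries (log2 fold change -1.09, SE 0.06, adjusted p = 2.01e-13). Rrm2, which makes deoxynucleotides, and Ccna2, which encodes cyclin A2, fell by log2 fold changes of -0.99 ± 0.06 and -0.89 ± 0.07. Amino acid supply genes and other targets of ATF4 fell for 18 of 20 and rose for none (median -0.78), 7 of them over 2-fold. Slc7a5, the transporter of large neutral amino acids, had 115, 146 and 130.3 CPM in the Th17 KO libraries, against 347, 358 and 318 CPM in the Th1 KO libraries (log2 fold change -1.43, SE 0.08, adjusted p = 1.72e-14). Phgdh and Shmt2, enzymes of serine synthesis and use, fell by log2 fold changes of -1.11 ± 0.07 and -1.08 ± 0.07. Tested against a fold of 1.5, 11 cell cycle genes and 10 genes of the amino acid list were lower.

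Unfolded protein response genes fell for 15 of 18 and 1 rose (median -0.47), among them Xbp1 at -0.93 ± 0.07, its central transcription factor. Edem1, the higher one, had 0.16 ± 0.06, and its call was lost in 10 of 20 alternatives. Cholesterol and fatty acid genes fell for 14 of 24 and rose for 3 (median -0.37), or for 1 without Th1 KO 3 or Th17 KO 1. Fasn, which makes fatty acids, and Cyp51, an enzyme of cholesterol synthesis, fell by log2 fold changes of -0.78 ± 0.06 and -0.71 ± 0.06, and Scd1 rose by 0.44 ± 0.09. Against a fold of 1.5, 4 unfolded protein response genes and 2 cholesterol and fatty acid genes were lower, and none was higher.

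Most glycolysis and ribosomal protein genes were higher in Th17 KO. Of 24 glycolysis and hypoxia genes, 17 rose and 1 fell (median 0.45). Hk2 and Hk1, the hexokinases, rose by 0.71 ± 0.08 and 0.66 ± 0.07, and Pfkl, a phosphofructokinase, by 0.52 ± 0.07. The glucose transporter gene Slc2a1 was the lower one (-0.22 ± 0.08) and did not pass without Th1 KO 1 (adjusted p = 0.149). Of 26 cytosolic ribosomal protein genes, 23 rose and none fell (median 0.44), with Rplp1 at 0.76 ± 0.07. Of 13 mitochondrially encoded genes, 6 rose and 1 fell (median 0.30), with 3 higher without Th1 KO 3 or Th17 KO 2. Tested against a fold of 1.5, 3 glycolysis and hypoxia genes and 1 ribosomal protein gene were higher, and no mitochondrially encoded gene passed. The part of the larger mitochondrial share in these changes was not tested.

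**Figure D3:**
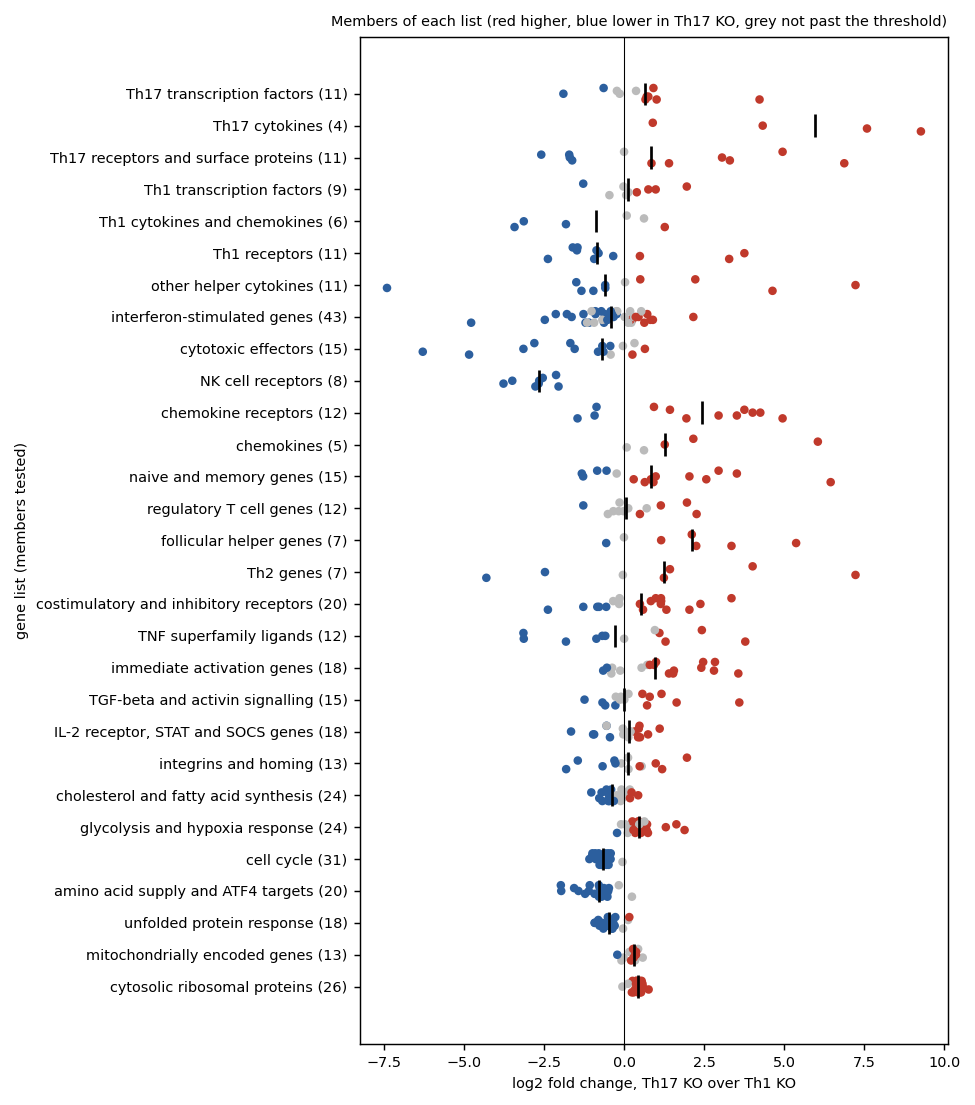
Log2 fold change of Th17 KO over Th1 KO for each tested member of 29 gene lists, in red where higher, blue where lower and grey where not past the threshold, with a bar at the list's median. The medians of cell cycle genes (-0.68) and NK cell receptors (-2.66) lie left of 0 and that of ribosomal protein genes (0.44) right of it, while the transcription factor lists of both lineages have members on either side.

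Beyond the lists, the 12 highest and 12 lowest genes with separate ranges and a mean of at least 5 CPM included the following. Ntrk3, which encodes the neurotrophin receptor TRKC, had 14.2, 26.3 and 21.6 CPM in the Th17 KO libraries, against 0, 0 and 0 CPM in the Th1 KO libraries, at least 226-fold higher. Gucy1a1, a subunit of the nitric oxide receptor guanylate cyclase, had 30.1, 23.9 and 24.4 CPM in the Th17 KO libraries, against 0, 0 and 0.0921 CPM in the Th1 KO libraries, a ratio of 893 (95% counting interval 159.7 to 35343). Lum, which encodes the matrix proteoglycan lumican, had 70.8, 59.8 and 71.7 CPM in the Th17 KO libraries, against 0.323, 0 and 0.0921 CPM in the Th1 KO libraries (log2 fold change 9.0, SE 0.24, adjusted p = 6.89e-21). Lrrk2, a kinase gene, had 75.7, 74.2 and 66.4 CPM in the Th17 KO libraries, against 0.539, 0.632 and 0.276 CPM in the Th1 KO libraries (log2 fold change 7.15, SE 0.19, adjusted p = 7.52e-21). All were near 0 in Th1 KO and present in every Th17 KO library. Mylk2 (a myosin kinase) and Pcsk1 (a prohormone convertase) were at least 80.8 and 60.0-fold higher. Tpbg, a membrane glycoprotein gene, and Penk, the enkephalin precursor, rose by 7.29 ± 0.31 and 7.08 ± 0.36.

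Downward, Aqp9, a channel for glycerol and water, had 0.711, 1.20 and 1.06 CPM in the Th17 KO libraries, against 47.1, 46.9 and 49.5 CPM in the Th1 KO libraries (log2 fold change -5.73, SE 0.17, adjusted p = 1.02e-19). Ffar2, a receptor for short-chain fatty acids, had 1.16, 2.39 and 1.82 CPM in the Th17 KO libraries, against 54.6, 63.3 and 58.7 CPM in the Th1 KO libraries (log2 fold change -5.27, SE 0.17, adjusted p = 2.51e-19). Emilin2, a matrix protein gene, had 2.93, 0 and 1.54 CPM in the Th17 KO libraries, against 101, 79.8 and 108 CPM in the Th1 KO libraries (log2 fold change -5.46, SE 0.31, adjusted p = 1.67e-07). In each case the Th1 KO libraries were high and the Th17 KO libraries near 0. Esm1 (endocan), Ncam2 (an adhesion protein), Ifi214 (p200 family) and Mecom (a zinc finger factor) had log2 fold changes of -5.25 ± 0.27, -5.37 ± 0.82, -5.01 ± 0.23 and -4.91 ± 0.26.

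Markers of other cells were checked because antigen-presenting cells were in the culture. CD4 T cell markers were high in every library and summed to 10800, 11100 and 10900 CPM over 10 genes in Th17 KO and to 11700, 12000 and 11300 CPM in Th1 KO, and Cd4 itself had 613, 705 and 658 CPM in the Th17 KO libraries, against 433, 463 and 452 CPM in the Th1 KO libraries. B cell markers summed to 27.1, 23.9 and 25.3 CPM over 7 genes in Th17 KO and to 0.754, 0.474 and 1.47 CPM in Th1 KO. Most of the Th17 KO sum was Ebf1, an early B cell factor, which had 23.7, 21.5 and 18.5 CPM in the Th17 KO libraries, against 0, 0.0790 and 0.0921 CPM in the Th1 KO libraries, a ratio of 348 (95% counting interval 95.9 to 2884). Cd79a, Ms4a1, Pax5 and Blnk were under the filter, with 8 to 19 counts each in Th17 KO and 1 to 6 in Th1 KO. Of the 2 tested, Cd79b was also higher (2.13 ± 0.71), though not without Th1 KO 2 or Th17 KO 3.

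Myeloid and dendritic cell markers summed to 162, 146 and 155 CPM over 14 genes in Th17 KO and to 67.9, 63.4 and 56.8 CPM in Th1 KO. Of 9 tested, 5 were higher and none lower, 4 of them genes of MHC class II presentation. Cd74, the invariant chain, had 55.6, 64.6 and 60.0 CPM in the Th17 KO libraries, against 3.02, 3.16 and 2.49 CPM in the Th1 KO libraries (log2 fold change 4.33, SE 0.14, adjusted p = 5.3e-19). H2-Ab1 had 47.6, 29.9 and 32.3 CPM in the Th17 KO libraries, against 16.5, 15.7 and 12.5 CPM in the Th1 KO libraries (log2 fold change 1.39, SE 0.20, adjusted p = 0.000102), and H2-Eb1 a ratio of 23.8 (95% counting interval 7.68 to 119). Lyz2, Itgax, Adgre1, Csf1r and Spi1, defining markers of these cells, were under the filter, with 4 to 7 counts each in Th17 KO and 0 to 7 in Th1 KO. Whether carried-over cells had a part in the genes higher in Th17 KO was not tested. CD8 and gamma-delta T cell markers summed over 6 genes to 5.87, 3.59 and 5.86 CPM in Th17 KO, against 3.66, 4.03 and 4.14 CPM in Th1 KO. Cd8b1, the 1 tested, was higher (log2 fold change 1.10, SE 0.26, adjusted p = 0.000732), while Cd8a had 1 count in Th17 KO and 0 in Th1 KO. The gamma-delta receptor genes Tcrg-C1 and Tcrg-C2 went the other way, with 1 count each in Th17 KO and 23 and 20 in Th1 KO. Tcrg-C4 and Sox13 had 0 counts each in Th17 KO and 1 each in Th1 KO. The part of gamma-delta cells in any gene lower in Th17 KO was not tested.

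Few genes had a Th17 to Th1 difference that passed a test of its own change between KO and WT, among them 4 NK receptor genes. With NKG2D present, 5773 of 12379 genes (46.6%) passed between Th17 WT and Th1 WT. Of the genes that passed in KO, 2461 were higher in both genotypes, 2413 were lower in both, and 6 had opposite calls. The difference between the differences, that is Th17 minus Th1 in KO minus the same in WT, passed for 76 genes (0.614%), 15 higher (0.121%) and 61 lower (0.493%) in KO. The KO pair and the WT pair share no library, and the labels do not say which KO and WT libraries shared a culture, so the test treats them as separate. Th17 WT 2 and 3 were as shallow as Th17 KO 2 or nearly so, with 2231999 and 854550 counts used. For 52 of the 76 the difference had the same sign and was larger in KO, and for 8 it was smaller. The sign was opposite for 16, of which only 3 passed between Th17 and Th1 in both genotypes. At an unadjusted p under 0.05 there were 1209 genes. Il17a, Il17f, Il23r, Ifng, Gzmb and Il10 were not among the 76, with adjusted p from 0.0697 to 1, a miss that does not show the genotypes to be alike. Ifng, for example, had log2 fold changes of -3.43 ± 0.24 in KO and -1.98 ± 0.22 in WT (difference -1.45, SE 0.31, adjusted p = 0.114).

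**Figure D4:**
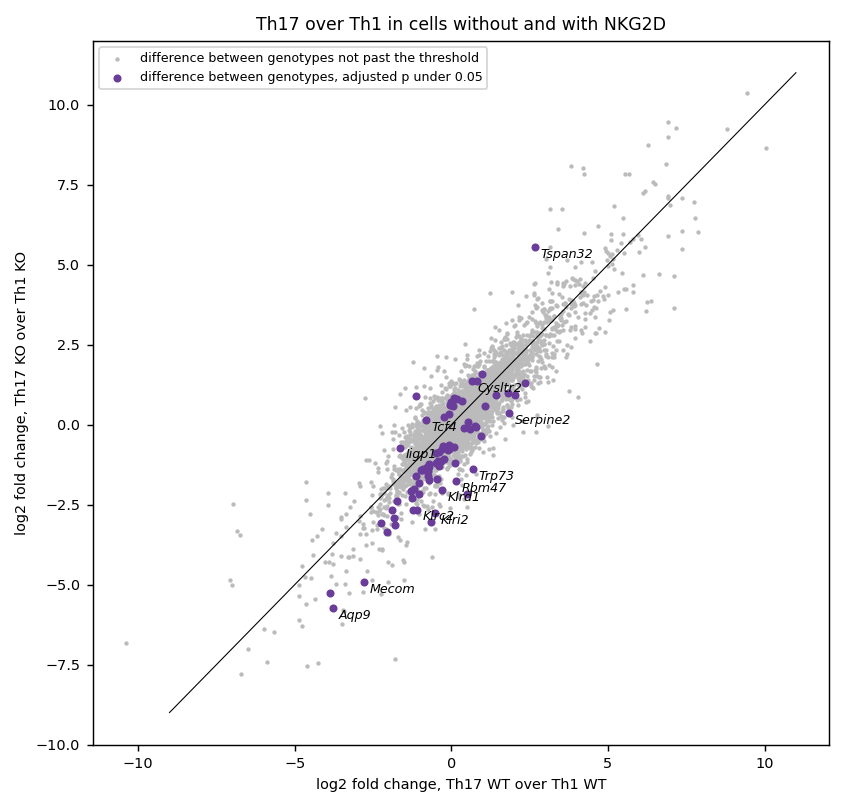
Log2 fold change of Th17 over Th1 in KO (vertical axis) and in WT (horizontal axis) for the 12379 genes tested, with the line of equal change and the 76 genes whose difference passed in purple. Most points follow the line, and the named purple points lie below it, such as Aqp9 and Klri2, or above it, such as Tspan32.

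Of the 8 NK receptor genes tested, Klrd1, Klrc1, Klrc2 and Klri2 were among the 76. In all 4 the fall in Th17 was larger in KO than in WT cells, which had been sorted as NKG2D positive. Klrd1 had 30.5 ± 1.72 CPM in Th17 KO and 124 ± 8.09 CPM in Th1 KO, and 102 ± 8.95 CPM in Th17 WT and 125 ± 9.15 CPM in Th1 WT (SD, n = 3 each). It fell more in Th17 KO than in Th17 WT, with log2 fold changes of -2.05 ± 0.09 and -0.29 ± 0.08 (difference -1.76, SE 0.12, adjusted p = 2.7e-10). Klrc2 had 49.0, 65.5 and 55.9 CPM in the Th17 WT libraries, against 128, 111 and 107 CPM in the Th1 WT libraries, a smaller fall than in KO (difference -1.57, SE 0.17, adjusted p = 3.39e-05). Klri2 had 10.9, 12.2 and 7.13 CPM in the Th17 WT libraries, against 15.2, 14.9 and 16.2 CPM in the Th1 WT libraries (difference -2.26, SE 0.26, adjusted p = 1.06e-05). Fasl had 22.6, 12.6 and 10.7 CPM in the Th17 WT libraries, against 70.4, 63.7 and 65.3 CPM in the Th1 WT libraries (difference -1.36, SE 0.28, adjusted p = 0.0405), a call that held in 9 of 19 alternatives and not without Th17 WT 1 (-0.69, adjusted p = 0.423) or any of 7 other single libraries.

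Other genes with a larger fall in KO included Aqp9, Mecom and Ffar2. Aqp9 had 4.05, 2.71 and 4.76 CPM in the Th17 WT libraries, against 48.4, 57.4 and 53.5 CPM in the Th1 WT libraries, where its fall was -3.78 ± 0.15 (difference -1.95, SE 0.33, adjusted p = 0.00219). Trp73, which encodes the p53 relative p73, and Rbm47, an RNA-binding protein gene, fell in KO (-1.39 ± 0.22 and -1.76 ± 0.26), against 0.70 ± 0.28 and 0.15 ± 0.25 in WT (differences -2.09, SE 0.36, adjusted p = 0.00261 and -1.91, SE 0.36, adjusted p = 0.00735). Without Th17 WT 1 none of Aqp9 (adjusted p = 0.201), Trp73 (adjusted p = 0.136), Mecom (adjusted p = 0.134) and Ffar2 (adjusted p = 0.0549) passed. Mecom also did not pass without Th17 KO 3 (adjusted p = 0.138). The call of Ffar2 was lost without several other single libraries, among them Th17 KO 1 (adjusted p = 0.205) and Th17 WT 2 (adjusted p = 0.127). Tmem176b had 7.04, 12.6 and 5.94 CPM in the Th17 WT libraries, against 11.4, 12.5 and 10.1 CPM in the Th1 WT libraries, so that Th1 KO was the highest of the 4 groups (difference -1.23, SE 0.28, adjusted p = 0.037). That call was lost without any 1 of 7 libraries, with an adjusted p of up to 0.117 without Th17 WT 2.

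A few genes were higher in Th17 KO relative to Th1 KO with less or no such rise in WT. Gbp2 had 716 ± 37.3 CPM in Th17 KO and 464 ± 35.2 CPM in Th1 KO, and 919 ± 38.4 CPM in Th17 WT and 948 ± 70.3 CPM in Th1 WT (difference 0.67, SE 0.10, adjusted p = 0.000238). Cd274, which encodes the inhibitory ligand PD-L1, had 66.8 ± 10.7 CPM in Th17 KO and 39.7 ± 1.17 CPM in Th1 KO, and 61.3 ± 9.43 CPM in Th17 WT and 61.6 ± 2.96 CPM in Th1 WT (difference 0.74, SE 0.13, adjusted p = 0.00252). For both genes Th1 KO was the lowest group in its mean. Casp1, the protease that matures IL-1b and IL-18, and Cysltr2, a leukotriene receptor, rose by 0.79 ± 0.08 and 1.36 ± 0.07 in KO and had 0.18 ± 0.09 and 0.65 ± 0.08 in WT. Without Th17 KO 3 the difference of Casp1 did not pass (adjusted p = 0.0828).

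Tspan32, a tetraspanin gene of blood cells, had the largest positive value. It had 17, 26.3 and 17.5 CPM in the Th17 KO libraries, against 0.323, 0.474 and 0.276 CPM in the Th1 KO libraries, and 46.4, 48.8 and 51.1 CPM in the Th17 WT libraries, against 8.00, 7.77 and 6.93 CPM in the Th1 WT libraries (difference 2.90, SE 0.33, adjusted p = 1.06e-05). It was higher in Th17 in both genotypes, and Th1 KO was the lowest of the 4 groups. Serpine2, a protease inhibitor gene, had 31.3, 37.1 and 35.8 CPM in the Th17 KO libraries, against 26.6, 27.0 and 25.3 CPM in the Th1 KO libraries, and 106, 102 and 120.1 CPM in the Th17 WT libraries, against 31.0, 32.9 and 25.1 CPM in the Th1 WT libraries (difference -1.49, SE 0.14, adjusted p = 3.24e-07). Its rise in Th17 was thus smaller in KO, where it did not pass without Th17 KO 3 (adjusted p = 0.0801) or with libraries thinned (adjusted p = 0.108).

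**Figure D5:**
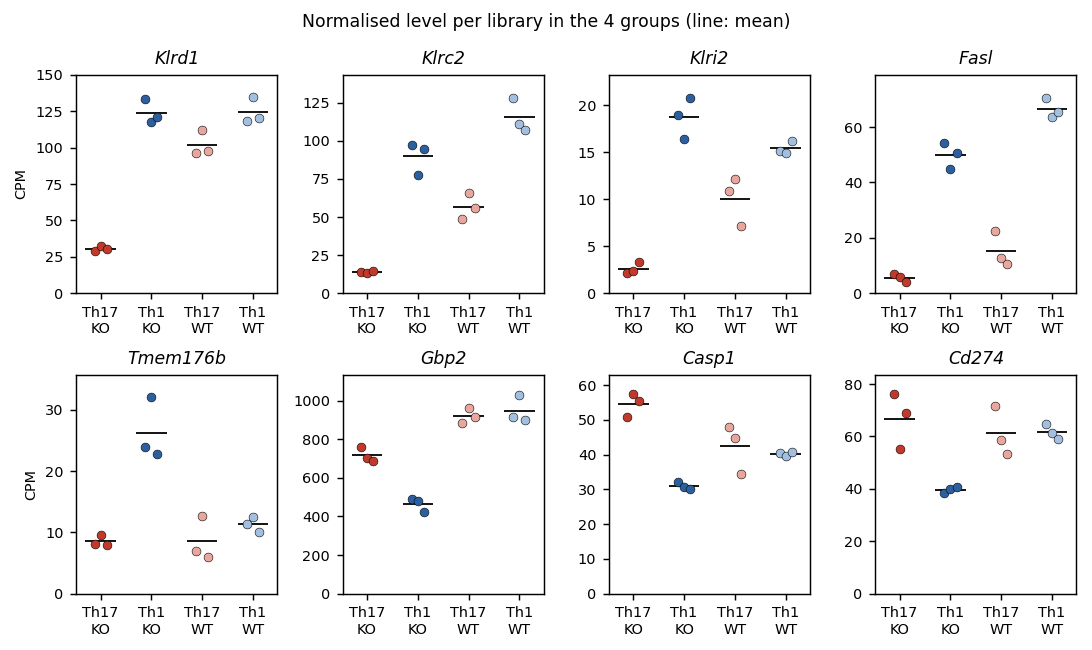
CPM of 8 genes whose Th17 to Th1 difference differed between genotypes, in each library of Th17 KO, Th1 KO, Th17 WT and Th1 WT, with the line at the group mean. Klrd1, Klrc2 and Klri2 are lowest in Th17 KO, Tmem176b is highest in Th1 KO, and Gbp2, Casp1 and Cd274 are lowest in Th1 KO.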

How the data were processed

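RNA of sorted cells was made into libraries with the poly-A based SMART-Seq v4 kit and Nextera XT and sequenced in read pairs on a NextSeq 500, per the labels. The kit does not mark strand, so overlapping and antisense genes cannot be told apart. The deposited values are whole-number counts per gene ID in 1 table per library. The submitters' processing notes name TopHat2, Bowtie2, featureCounts and the build GRCm38 (mm10), with versions and settings not given in the sources used here. Names and coordinates were taken from the annotation for 96.0% of 39179 IDs.

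ENSMUSG00000045999 was removed. The 12 libraries were fitted together in edgeR 4.0.16 (R 4.3.3) with TMM scaling, its default filter on low counts and the robust quasi-likelihood F test. The contrasts were Th17 KO minus Th1 KO, Th17 WT minus Th1 WT and the difference between them, each Benjamini-Hochberg adjusted over 12379 genes. The SE of a log2 fold change is its size divided by the square root of F. Folds against groups with 0 counts are lower bounds with 3 counts over the group as the floor, and those against 1 to 3 counts have a 95% counting interval, which covers counting error only. Alternatives used DESeq2 1.42.0, limma 3.58.1 and other filters, depths and libraries. The fits were tested on simulated data. Counts of libraries in a group differed beyond sampling noise, so each was counted as 1 sample, which does not show separate animals or cultures.

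Named genes are Klrk1, Hcst and Thy1, every member of the Th17 and Th1 lists, and of other lists up to 3 members of smallest p in each direction. To these come the 12 highest and 12 lowest genes, and the 8 highest and 8 lowest for the difference between KO and WT, with a mean of at least 5 CPM and, for the first, separate ranges. Predicted genes, pseudogenes and receptor segments were left out of the last sets, and some genes are not reported here, though list counts and medians include them. Members, lists and tests were chosen with earlier results of these data known, and single genes outside the rule (Klrc1, Cxcr5, Foxp3, Il4, Il5, Ncr1, Tyrobp and the low cell markers) were named after their values were seen.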

Additional observations from a re-analysis of the deposited data

Results flagged for a closer look

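The following genes were picked out because their Th17 minus Th1 log2 difference was not the same in KO and WT cells by the interaction test of edgeR (adjusted p under 0.05), each value being KO minus WT. Among genes whose value was above 0, Tspan32 had 2.90, Tcf4 0.94, Iigp1 0.92, Cd274 0.74, Ppp2r3c 0.73, Cysltr2 0.71, Gbp2 0.67 and Casp1 0.62. Among genes whose value was below 0, Klri2 had -2.26, Mecom -2.12, Trp73 -2.09, Aqp9 -1.95, Rbm47 -1.91, Klrd1 -1.76, Klrc2 -1.57, Serpine2 -1.49, Ffar2 -1.39, Fasl -1.36, Tmem176b -1.23, Ifngr1 -0.47 and Slc7a5 -0.45. Klrd1, Klrc2, Serpine2 and Gbp2 passed in every alternative, while Slc7a5 passed in 8 of 19, Tcf4 in 8 of 19, Ffar2 in 8 of 19, Fasl in 9 of 19, Tmem176b in 9 of 19, Iigp1 in 13 of 19 and Ifngr1 in 13 of 19.

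A signal outside the genes tested was the ID ENSMUSG00000045999, which the annotation does not name and which took 51% of the counts of Th17 KO 2. It also took 18.3% in Th17 WT 2 and 48.1% in Th17 WT 3, and at most 0.00831% in the other 9 libraries. With it kept in the table, 3282 genes were higher and 3252 lower in Th17 KO. The calls of Trac (adjusted p = 0.0956) and of the KO to WT difference of Slc7a5 (adjusted p = 0.0508) were lost, and Cd79b and Ccr6 were no longer tested.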

How the results depend on the processing

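Counts of genes kept their size under most alternatives. Genes higher in Th17 KO numbered 3340, against 1397 with all libraries thinned to the smallest (8692 genes tested), 1165 in a test against a fold of 1.5, and 2732 to 3389 without any 1 library. Genes lower numbered 3224, against 1200 thinned, 752 against a fold of 1.5, and 2880 to 3337 without any 1 library. For the difference between KO and WT, 15 genes were higher and 61 lower, against 54 and 159 with no filter on low counts (23518 tested), 3 and 15 thinned, 6 higher without the 3 shallow Th17 libraries (Th17 KO 2, Th17 WT 2 and 3), and 6 to 22 and 38 to 88 without any 1 library. Those counts reached 6 higher without Th17 KO 3, 9 without Th1 WT 2 and 38 lower without Th1 WT 1. The causes were not tested, except that thinning left fewer genes to test.

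Of 189 named genes tested, 155 kept their direction and side of the threshold between Th17 KO and Th1 KO in every alternative that tested them. Genes whose sign turned did not pass in either case. Without any 1 library, Ahr ranged between -0.21 and 0.66, Tbx21 between -0.15 and 0.30, Runx3 between -0.09 and 0.10, Irf1 between -0.01 and 0.23, Ccl3 between -0.18 and 1.20, Ccl4 between -0.44 and 0.35 and Abcb1a between -0.51 and 0.29 (log2). Without the shallow libraries Tbx21 was -0.03 and Abcb1a 0.03. Runx3 was 0.02 by DESeq2 and 0.26 thinned, Abcb1a 0.08 by limma-voom, and Tcf4 -0.17 thinned. Thinning also ended the calls of Klrk1, Hcst, Tgfb1, Il27ra, Smad2, Icos, Fos, Ier3, Iigp1, Serpine2, Insig1, mt-Nd3, Cd3d and Trac, and DESeq2 those of Csf2, Cd79b, Ikzf3, Edem1, Insig1 and Trbc1. No paired analysis was possible because the labels give no replicate numbers and do not say which KO and WT libraries shared a culture. With 844327 counts used, Th17 KO 2 limits what can be said of genes under a few CPM.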
